A study of Mus musculus with 2 samples.

Results

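Stefin-high neutrophils were the neutrophils of the library labelled liver that gave the largest share of their transcripts to 6 stefin genes, Stfa2, Stfa2l1, Stfa3, Cstdc4, Cstdc5 and Cstdc6. The library held 9591 cell barcodes of the 14421 in the series. A barcode was called a neutrophil when S100a8 and S100a9 together made at least 10% of its gene UMIs (unique molecular identifiers, which count captured transcript molecules). It was given a treatment group when its leading hashtag antibody had at least 10 UMIs and at least 3 times the UMIs of the next. These rules left 2779 assigned neutrophils, of which the 20% with the highest stefin share were 556. The 28 of them that also lay in the top 10% for Camp, Ngp and Ltf, the genes of an earlier granule stage, were removed, and 528 cells remained. The other neutrophils, 1973 cells, were the assigned neutrophils outside the stefin-high set and outside the top 10% for Camp, Ngp and Ltf.

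The cells came from female BALB/c mice (strain BALB/cAnNCrl), bought at 7 to 8 weeks of age, that carried liver metastases of 4T1-Luc mammary carcinoma cells seeded through a divided spleen. Treatment was by hepatic artery infusion of vehicle or of CBL0137 at either a low or a high dose, and cells were taken 5 days later. CBL0137 is a curaxin, a DNA-binding compound that traps the histone chaperone FACT on chromatin; the sources used here tie no amount of the compound to the low or the high group. All groups carried the tumour. Each hashtag group was a pool of 2 mice and each tissue gave 1 library, so no test between doses was possible. Intervals below are 95% intervals for counting error alone (exact Clopper-Pearson for shares, exact Poisson for levels, exact conditional binomial for ratios) and say nothing of the spread between mice. The methods describe CD11b+ bead selection and the labels describe leukocytes from a density gradient, and a bead or density step can set the share of any cell type.

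The tissue label of the library was uncertain. Its matrix was named for the spleen and its sample for the liver, and the opposite held for the second library. A list of 5 hepatocyte genes (Alb, Apoa1, Ttr, Serpina1c and Fgb) gave 0 UMIs in the 528 stefin-high cells of the library labelled liver, while the stefin-high cells of the library labelled spleen, chosen by the same rule, held 50 hepatocyte UMIs in 201 cells. Liver-cell transcripts therefore went against the labels, and the libraries are named here only as labelled. The 2 libraries shared 15 barcodes, of which 1 was a stefin-high cell.

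Stefins are small intracellular inhibitors of cysteine proteases such as cathepsins B, L and S. Mice carry an expanded cluster of stefin A genes on chromosome 16, and several of its genes are abundant in neutrophils and in stratified epithelium. Neutrophils make their granules in order as they mature, with primary granule enzymes such as elastase and myeloperoxidase first, Camp, Ngp and Ltf next and gelatinase last, so that granule transcripts mark stages.

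Promoter sequences are shown for the 5 rule genes that RefSeq (GRCm38.p6) listed, since these genes lie in a single cluster and were counted together by the rule; Cstdc6 is named only. The windows are the 100 bases before the transcription start that RefSeq gives, at chr16:36408364-36408463 on the minus strand for Stfa2, chr16:36156711-36156810 on the plus strand for Stfa2l1, chr16:36455393-36455492 on the minus strand for Stfa3, chr16:36184112-36184211 on the plus strand for Cstdc4 and chr16:36367571-36367670 on the minus strand for Cstdc5. Capitals mark the longest run of letters that the 5 windows share.
Stfa2: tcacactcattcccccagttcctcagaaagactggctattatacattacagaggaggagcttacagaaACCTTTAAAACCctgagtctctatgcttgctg
Stfa2l1: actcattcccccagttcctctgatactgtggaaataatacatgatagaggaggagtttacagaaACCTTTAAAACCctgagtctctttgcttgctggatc
Stfa3: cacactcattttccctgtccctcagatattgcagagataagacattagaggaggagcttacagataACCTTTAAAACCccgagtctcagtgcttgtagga
Cstdc4: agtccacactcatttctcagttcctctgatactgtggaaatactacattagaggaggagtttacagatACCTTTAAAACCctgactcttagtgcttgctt
Cstdc5: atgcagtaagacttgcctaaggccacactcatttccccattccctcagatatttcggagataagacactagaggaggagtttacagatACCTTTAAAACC

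The 12 letters ACCTTTAAAACC began 32, 36, 34, 32 and 12 bases before the start of Stfa2, Stfa2l1, Stfa3, Cstdc4 and Cstdc5. Searched on both strands in windows of 250 bases before to 50 after the start, they occurred in 11 of 32851 RefSeq promoters (0.0335%). Besides the 5 rule genes these were Stfa1, Csta3 and Cstdc3 of the same cluster, the predicted genes Gm39539 and Gm7260, and Cdc42ep4. The windows of Csta1, Csta2, Ggt1, Asprv1, Olfm4, Camp, Ngp, Ltf, S100a8 and S100a9 did not hold these letters. A run of 10 letters that the 5 windows also share, AGAGGAGGAG, occurred in 337 promoters (1.03%), and TTTAAA, which overlaps the longer run, in 4324 (13.2%). TATAAA occurred in 4473 promoters (13.6%) and in none of these 5 windows. A match of letters is a description of the windows and not evidence of a bound site.

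In the GENCODE vM21 annotation of the deposited build (mm10, GRCm38) the rule genes lay at chr16:36403992-36408457 for Stfa2, chr16:36156811-36161953 for Stfa2l1, chr16:36450537-36455392 for Stfa3, chr16:36184212-36188111 for Cstdc4, chr16:36359382-36367748 for Cstdc5 and chr16:36321665-36334332 for Cstdc6. The starts of Stfa2 and Cstdc5 lie further upstream here than in RefSeq, so that the window shown for Cstdc5 falls inside this gene model and that for Stfa2 nearly so. Reads of such close copies can be assigned to the wrong gene. Of all 50-base windows in the last 300 bases of their transcripts, 24.7% in Stfa2 were identical to Stfa2l1, 36.5% in Cstdc5 and 45.4% in Cstdc6 were identical to another stefin gene, and 24.0% in Cstdc4 were identical to Csta2. No such window of Stfa3 was shared. The split of counts between these genes is therefore uncertain, and their sum is firmer than its parts.

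Cstdc5 gave 46.7% of the stefin UMIs of stefin-high cells, Cstdc4 gave 19.7%, Stfa2 gave 14.9%, Stfa2l1 gave 9.46%, Stfa3 gave 8.66% and Cstdc6 gave 0.518%. Together the 6 genes made 6.24% of the gene UMIs of stefin-high cells in vehicle, 5.78% in low dose and 6.84% in high dose. In other neutrophils they made 0.978%, 0.882% and 1.42%. A single cell could give a large part of its transcripts to this family, with a highest share of 13.3%. Cstdc5 and Stfa2 had a UMI in every one of the 528 cells, Stfa2l1 and Stfa3 in 525 each, Cstdc4 in 517 and Cstdc6 in 431.

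Cells did not all use the 6 genes in the same proportion. The part of a cell's stefin UMIs that came from Cstdc5 ran from 29.3% at the 10th percentile of cells to 56.3% at the 90th, with a median of 42.7%. For Stfa2l1 the same percentiles were 4.21% and 20.1%, and for Cstdc4 they were 9.11% and 28.6%. Across the 528 cells, the shares of Stfa2 and Stfa3 in gene UMIs had a rank correlation of 0.57, those of Stfa3 and Cstdc5 0.55, and those of Stfa2l1 and Cstdc4 0.41. Stfa2l1 had 0.04 against Stfa3, 0.05 against Cstdc5 and 0.09 against Cstdc6, but 0.29 against Stfa2. Cstdc5 had 0.47 against Cstdc6 and 0.42 against Cstdc4. In cells of at least 3000 UMIs, Stfa2l1 against Stfa3 gave 0.083 in 502 stefin-high cells and 0.38 in 1664 other neutrophils. These values describe cells of 1 library that share depth and reads between copies, and the stefin-high set was chosen on the sum of the same genes.

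**Figure D1:**
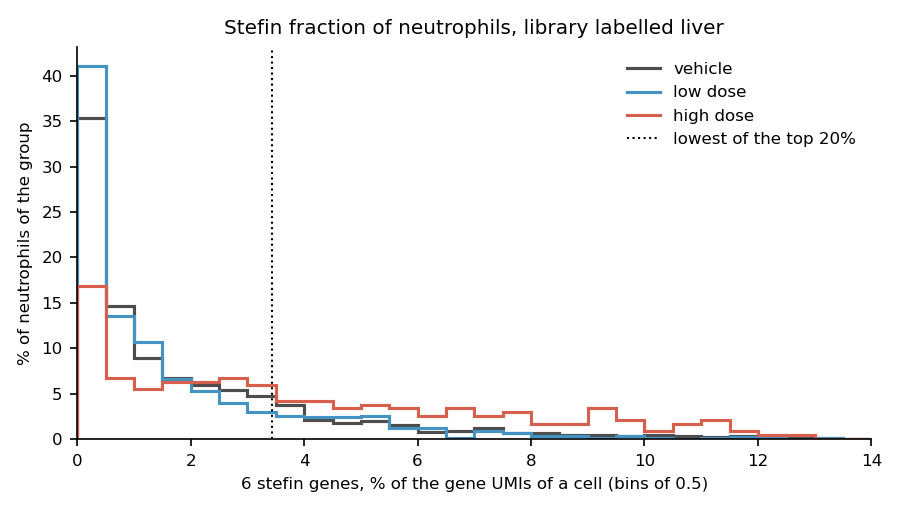
Share of gene UMIs from the 6 stefin genes (x axis, percent, in bins of 0.5) against the percent of each group's assigned neutrophils in the bin (y axis), library labelled liver; the dotted line is the lowest value of the top 20%. High-dose neutrophils (red) sit further right, with a median of 3.22% against 1.00% in vehicle and 0.827% in low dose, and no gap separates stefin-high cells from the rest.

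The stefin share was a continuous scale and the set is a range of it, not a separate type. The lowest cells inside the set had 3.428% and 3.429% of their UMIs from stefins, and the highest outside had 3.427% and 3.419%. Within 10% of that value there were 63 cells above and 72 below. At the other limit, the granule share was 6.2203% in the last cell removed and 6.2202% in the first kept. The median stefin share of stefin-high cells was 5.30% in vehicle, 5.03% in low dose and 6.72% in high dose. Of all 2779 neutrophils, 97 had no stefin UMI, 35 of them in vehicle, 62 in low dose and 0 in high dose. These counts were not matched for depth, and the median UMIs per neutrophil were 7056, 7670 and 20843. In the library labelled spleen 21 of 296, 44 of 554 and 15 of 212 neutrophils had none.

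The rule gave a like set in the library labelled spleen. Its 201 cells had a median stefin share of 5.13%, with a lowest value of 3.32%, and Cstdc5 again gave the largest part, 43.4% of stefin UMIs in vehicle. The 6 genes made 5.86% of the gene UMIs of these cells and 0.838% of those of other neutrophils.

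The neutrophil label was checked on genes that the rule did not use, and all 8 of these (Csf3r, Cxcr2, Ly6g, Mmp8, Mmp9, Retnlg, Il1r2 and Lcn2) were detected in stefin-high cells. S100a8 plus S100a9, which chose the cells, made a median of 31.3%, 33.3% and 33.7% of their UMIs in vehicle, low and high dose. Stefins are also epidermal proteins, but 6 keratinocyte genes gave 3 UMIs in the 528 cells, all from Krt10, with Krt5, Krt14, Krt1, Sbsn and Lor at 0. Epithelial tumour genes (Epcam, Krt8, Krt18 and Krt19) gave 2 UMIs. Transcripts of other leukocytes were present at low levels: 6 T cell genes summed to 512 UMIs, of which 387 were Cd3d, 7 dendritic cell genes to 369 UMIs, led by H2-Aa, 8 monocyte or macrophage genes to 255 UMIs, led by Csf1r, and 6 erythroid genes to 388 UMIs, led by Hbb-bs. By group, the dendritic list held 266, 84 and 19 UMIs and the monocyte list 149, 75 and 31 UMIs in vehicle, low and high dose.

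Stefin-high cells made a larger share of neutrophils after high-dose CBL0137. They were 220 of 1265 neutrophils in vehicle, 17.4% (15.3 to 19.6), 201 of 1277 in low dose, 15.7% (13.8 to 17.9), and 107 of 237 in high dose, 45.1% (38.7 to 51.7). High dose exceeded vehicle by 27.8 percentage points (19.1 to 36.4, from the far ends of both intervals), while low dose lay 1.65 points under vehicle, with an interval of -5.81 to 2.51 that includes 0. In the library labelled spleen, with the same rule applied to its own neutrophils, the shares were 57 of 296 (19.3%), 75 of 554 (13.5%) and 69 of 212 (32.5%), and high dose exceeded vehicle by 13.3 points (2.07 to 24.4). The stefin share itself chose these cells, and both libraries came from the same treatment groups, so these shares are a description of how the scale differed between groups.

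The larger share stood beside a smaller neutrophil population. Neutrophils were 37.6% (36.0 to 39.3) of assigned cells in vehicle, 37.5% in low dose and 11.1% (9.76 to 12.5) in high dose. Stefin-high cells were 6.55% (5.73 to 7.44), 5.90% (5.13 to 6.74) and 4.99% (4.11 to 6.0) of all assigned cells, and the intervals of vehicle and high dose overlapped. In the library labelled spleen stefin-high cells were 6.95% (5.31 to 8.91), 5.69% and 2.94% (2.30 to 3.71) of assigned cells, and there the intervals of vehicle and high dose did not overlap. Whether more cells took on a high stefin share or other neutrophils left cannot be told apart from shares.

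Depth and a second neutrophil set moved with the high-dose share. The median UMIs per cell of stefin-high cells were 10529 in vehicle, 9902 in low dose and 18438 in high dose, and those of other neutrophils were 5297, 5954 and 22045.5. When each cell was thinned to 500 UMIs before ranking, the shares were 17.2% in vehicle and 45.1% in high dose. Only the ranking was thinned, and the part that depth had in the difference was not tested. The top 20% of neutrophils by Csf1 and Ccrl2, cytokine and receptor genes of an inflammatory set, numbered 305 in vehicle, 249 in low dose and 2 in high dose. Without that set, stefin-high cells were 188 of 960 neutrophils in vehicle (19.6%) and 107 of 235 in high dose (45.5%). Mitochondrial genes made a median of 1.08%, 0.840% and 1.03% of UMIs in stefin-high cells.

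**Figure D2:**
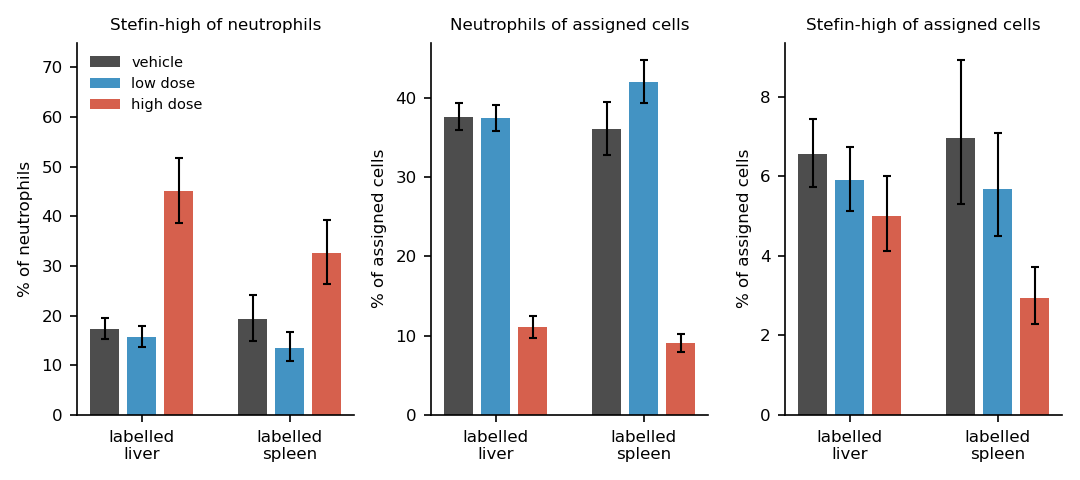
Percent of neutrophils that were stefin-high (left), percent of hashtag-assigned cells that were neutrophils (middle) and percent of assigned cells that were stefin-high (right), for vehicle, low and high dose in each library; bars start at 0 and lines are 95% Clopper-Pearson intervals of counting error. In the library labelled liver the high-dose bar stands at 45.1% on the left but at 11.1% in the middle and 4.99% on the right.

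The levels of the stefin genes are given next as UMIs per 1000000 gene UMIs of the summed cells (CPM). Because UMIs count molecules, no correction for length was made. Cstdc5 stood at 28552 CPM in vehicle, 26356 in low dose and 33373 in high dose in stefin-high cells, and at 4770, 4263 and 7613 CPM in other neutrophils. Cstdc4 stood at 12730, 10913 and 13438 CPM against 1416, 1406 and 2362 CPM. Stfa3 stood at 5453, 5140 and 5722 CPM against 684, 541 and 996 CPM. Stfa2 stood at 9115, 9033 and 10002 CPM against 1477, 1285 and 2025 CPM. Cstdc5 led in each group, followed by Cstdc4 and Stfa2, whereas Stfa2l1 was above Stfa3 in vehicle and low dose and below it in high dose. Every stefin-high value of these genes lay above every other-neutrophil value of the same gene, and the cells were chosen on the sum of these genes. Stfa2l1 stood at 6217, 6044 and 5520 CPM against 1364, 1253 and 1118 CPM, and Cstdc6, the least abundant, at 336, 289 and 348 CPM against 67.5, 67.4 and 74.6 CPM.

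All groups of stefin-high cells were held above 1 limit on the sum of the 6 stefins, which bounds how far the levels can differ between doses, so the dose ratios of these genes are a description. For high dose over vehicle the log2 ratio was 0.23 (0.21 to 0.24) for Cstdc5, 0.13 (0.11 to 0.16) for Stfa2, 0.08 (0.06 to 0.10) for Cstdc4, 0.07 (0.04 to 0.10) for Stfa3 and 0.05 (-0.09 to 0.19) for Cstdc6. Stfa2l1 went the other way, at -0.17 (-0.20 to -0.14). In other neutrophils, whose stefin level the rule capped, Cstdc4 was 0.74 higher (0.70 to 0.78), Cstdc5 0.67 higher and Stfa3 0.54 higher in high dose than in vehicle on the log2 scale, and Stfa2l1 was -0.29 (-0.34 to -0.23). Stfa2l1 thus had a lower value in high dose in both sets of this library. In the library labelled spleen Stfa2l1 was -0.11 (-0.18 to -0.04) in stefin-high cells but 0.14 (0.03 to 0.24) in other neutrophils.

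Stefins that the rule did not count were also higher. Stfa1 was at 34.2 CPM (30.1 to 38.7) in stefin-high cells and 8.26 CPM in other neutrophils, and Csta3 at 54.8 CPM (49.6 to 60.5) and 13.6 CPM. Both lie in the same cluster, and reads of Stfa1 share 38.9% of their end windows with another stefin gene, whereas Csta3 shares none. Csta2 had 27 UMIs in stefin-high cells and 20 in other neutrophils, and Csta1 had 1 in each. Csta3 was 0.79 lower on the log2 scale in high dose than in vehicle (-1.18 to -0.40), from 63.6 to 36.9 CPM, with 62.0 CPM in low dose. The related inhibitors outside the cluster did not follow: Cstb, the stefin B gene, stood at 122 CPM in stefin-high cells and 136 CPM in other neutrophils, and Cst3, which encodes the secreted inhibitor cystatin C, at 410 and 559 CPM.

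**Figure D3:**
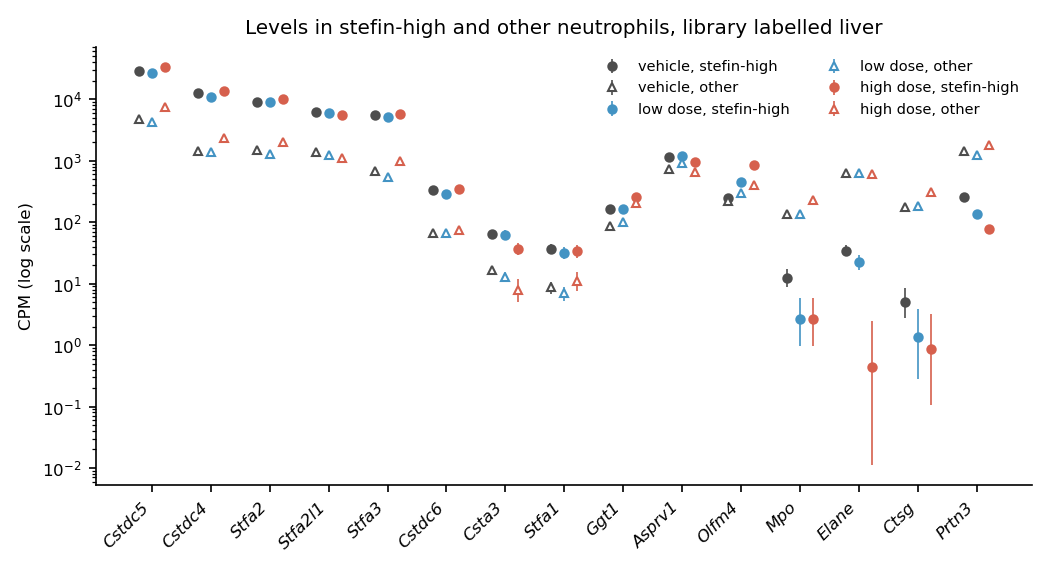
CPM (log axis) of 15 genes in stefin-high (filled circles) and other (open triangles) neutrophils by dose, library labelled liver; lines are 95% Poisson intervals of counting error. The stefins lie higher in stefin-high cells in every dose group, and Mpo, Elane, Ctsg and Prtn3 lie lower, down to 1 UMI of Elane in high dose.

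Compared with other neutrophils, few genes were more abundant in stefin-high cells and many were less so. Of 7451 genes with at least 100 UMIs over both sets, 9 genes (0.121%) were at least 2-fold higher and 715 (9.6%) at least 2-fold lower, a description, since these cells were compared after ranking on their stefins. The 9 were the 6 rule genes, Stfa1, Csta3 and Ush1c, which encodes the scaffold protein harmonin and had a log2 ratio of 1.58. The median gene stood at -0.31, and at -0.13 when CPM were scaled without the 20 most abundant genes. Of all 7451 genes 1264 were higher and 6187 lower, or 2670 and 4781 by that scaling, and the gene lists below stand beside these counts. That scaling gave 13 genes past 2-fold higher and 470 lower, and a limit of 20% on S100a8 and S100a9 gave 9 and 275. Of the 715 lower genes, 353 had at least 100 UMIs in the library labelled spleen, and there 348 were lower and 331 at least 2-fold lower. The share of all genes that were lower there is not given, and the same rule chose the cells, so these counts are a description.

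The marker genes given with the set held with smaller differences than the stefins. Ggt1, which encodes gamma-glutamyltransferase, a cell-surface enzyme of glutathione breakdown (chr10:75561604-75586200), stood at 166 CPM in vehicle, 162 in low dose and 258 in high dose in stefin-high cells, and at 86.6, 99.0 and 201 CPM in other neutrophils. The log2 ratio was 0.84 (0.74 to 0.94) over all groups but only 0.36 within high dose. Asprv1, a retroviral-like aspartic protease known from epidermis (chr6:86628164-86629710), stood at 1154, 1212 and 948 CPM in stefin-high cells and at 742, 924 and 650 CPM in other neutrophils, a log2 ratio of 0.46 (0.42 to 0.50). Ratios of 1.15 for Ggt1 and 0.65 for Asprv1 were found in the library labelled spleen. At an equal depth of 3000 UMIs, 32.5%, 31.8% and 55.1% of stefin-high cells had a Ggt1 UMI in vehicle, low and high dose, against 17.8%, 20.3% and 50.9% of other neutrophils and 2.29%, 4.23% and 2.71% of T cells, the background level. In high dose the intervals of stefin-high cells (45.2 to 64.8) and other neutrophils (41.3 to 60.4) overlapped. Before thinning the stefin-high shares were 60.9%, 62.2% and 97.2%. Shares at 3000 UMIs, here and below, leave out the cells under that depth. In vehicle, low and high dose these were 17, 9 and 0 stefin-high cells and 183, 126 and 0 other neutrophils.

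Further genes with the largest ratios were Olfm4, Aifm2, Cpne8, Slc37a3, AI463170 and Dab2ip. Aifm2, an oxidoreductase that keeps coenzyme Q reduced, stood at 19.3 CPM in stefin-high cells and 11.8 CPM in other neutrophils, a log2 ratio of 0.71. The remaining ratios were 0.60 for Cpne8 and Slc37a3, 0.58 for AI463170 and 0.51 for Dab2ip. None of these 6 genes was past 2-fold over all groups. High-dose cells were 107 of the 528 stefin-high cells but 114 of the 1973 others, so ratios over all groups also carry the dose mix. Olfm4, at 0.83 over all groups, was at 0.14 (0.02 to 0.27) within vehicle, 0.59 within low dose and 1.07 within high dose. Within a single group and on fewer UMIs, Slc37a3 in vehicle (1.12), AI463170 and Cpne8 in low dose (1.03 and 1.01) and Dab2ip in high dose (1.39) were also past 2-fold.

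Primary granule genes were lower as a group. All 7 of the list (Mpo, Elane, Prtn3, Ctsg, Ms4a3, Nkg7 and Prss57) were more than 2-fold lower in stefin-high cells, with a median log2 ratio of -3.65, and their sum was 224 CPM against 2654 CPM. Elane, neutrophil elastase, had 96, 50 and 1 UMIs in the vehicle, low and high groups, or 34.3, 22.3 and 0.439 CPM, against 631, 641 and 597 CPM in other neutrophils. Ctsg, cathepsin G, had 19 UMIs in all 528 cells and a log2 ratio of -6.25, Mpo, myeloperoxidase, -4.54, and Ms4a3, a marker of granulocyte-monocyte progenitors, -3.65. Prtn3, proteinase 3, was -3.08 but 85.2% of its UMIs in vehicle, 621 of 729, came from 5 of 220 cells. The 96 Elane UMIs of vehicle also came from 5 cells, 54 of them from a single cell. By group the sum of the list was 343, 195 and 106 CPM in stefin-high cells and 2623, 2446 and 3387 CPM in other neutrophils. It was thus lower in every group. A list of 6 early granulocyte genes, Prtn3, Elane, Ms4a3 and Ctsg among them, was also counted per cell. At least 3 UMIs of it were in 65 of 528 stefin-high cells and 254 of 1973 other neutrophils. These were 27 of 220 against 111 of 914 in vehicle and 17 of 201 against 93 of 945 in low dose. In high dose they were 21 of 107 against 50 of 114. Depth was not matched for these counts, and the pooled ratios do not describe a typical cell.

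Later granule genes differed less. Camp, the cathelicidin gene, stood at 4378, 4379 and 4211 CPM in stefin-high cells and at 6158, 5063 and 7672 CPM in other neutrophils, with cells highest in it removed from both by the rule. All 6 tertiary granule genes were higher in stefin-high cells (median log2 ratio 0.22, none past 2-fold), among them Mmp9, gelatinase B, at 633 against 497 CPM, and Mmp25, a membrane-bound metalloproteinase, with a ratio of 0.51. Of 11 secondary granule genes 6 were higher and 5 lower, with a median of 0.01 (8 and 3, with a median of 0.20, without the 20 most abundant genes in the scaling), and Fcnb, ficolin B, was the single gene past 2-fold, at -2.24. Cell cycle genes were lower in 14 of 14, with 5 past 2-fold (Pcna, Rrm2, Mcm5, Tyms and Stmn1) and a median of -0.87, and Hells and Mcm6, which act in DNA replication, were at -3.35 and -3.24. S100a6, of the mature neutrophil list, was 0.49 higher, at 14679 against 10432 CPM. That list had no single direction without the 20 most abundant genes in the scaling: 6 of 12 were higher and 6 lower, with a median of 0.04. Of all 7451 genes 2670 were higher by that scaling.

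Other lists differed less than the primary granule list, and several had a median near the -0.31 of all genes. Of 14 transcription factors with enough UMIs all were lower (median -0.43, none past 2-fold), where 6187 of 7451 genes were lower, and without the 20 most abundant genes in the scaling 12 of 14 were lower beside 4781 of 7451. The list of cysteine cathepsins, the protease class that stefins inhibit, and of the related legumain was lower in 6 of 7 (median -0.41; Lgmn, legumain, past 2-fold at -1.26). Ctsc, which activates granule proteases, was at 0.29 (0.14 to 0.45), but at -1.09 in the library labelled spleen, where all 7 were lower. The share of all genes lower in that library is not given, so nothing is read from that count. Of 15 inflammatory genes 13 were lower, or 10 by the other scaling, with a median of -0.45 and 5 past 2-fold (Ccrl2, Icam1, Ccl3, Il1b and Csf1), and Il1b was at 301.3 against 672 CPM. Within groups the log2 ratio of Il1b was -1.09 in vehicle and -0.89 in low dose but 0.45 (0.21 to 0.69) in high dose. Within high dose 3 of 5 inflammatory genes and 6 of 10 transcription factors with enough UMIs were higher. The share of all genes higher within high dose is not given, so nothing is read from these counts. The lists with medians near 0 depended on the scaling: of 6 NADPH oxidase genes 3 were higher and 3 lower, or 6 higher without the 20 most abundant genes, and of 5 survival genes 0 were higher, or 3 by that scaling. The glutathione list, to which Ggt1 belongs, had 11 of 14 lower, or 10 by the other scaling, with a median of -0.37 and with Gsto1, Gstm1, Gpx3 and Dpep2 past 2-fold. The 2 FACT genes, Ssrp1 and Supt16, were lower, at -1.44 and -0.88. Hba-a1, an alpha-globin of red cells, was at -2.97 here and at 0.64 in the library labelled spleen, where 276 of its 278 UMIs in stefin-high cells were in low dose.

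Neutrophils were also placed in 10 equal bins by stefin share, which shows how other genes differed along the whole scale. The primary granule sum was 6972 CPM in the lowest bin and 200 CPM in the highest, and 6238 and 366 CPM among vehicle cells alone. Camp, Ngp and Ltf together ran from 42232 to 22572 CPM. Ggt1 ran from 53.1 to 193 CPM, Asprv1 from 364 to 1113 CPM and S100a6 from 6032 to 15352 CPM, with vehicle cells alone at 47.3 to 157, 442 to 1124 and 6069 to 14188 CPM. Other genes peaked in the middle: Il1b was at 257 CPM in the lowest bin, 729 in the fourth and 203 in the highest, and Saa3 at 819, 2269 in the third and 396 CPM in the highest. In vehicle alone Il1b was at 157 CPM in the lowest bin, 353 in the fourth, 480 in the sixth and 105 in the highest, and Saa3 at 1284, 3435 in the third and 574 CPM in the highest. The share of cells from high dose was 4.68% in the lowest bin, 5.04% in the sixth, 11.9% in the eighth and 27.1% in the highest. In the same bins Olfm4 was at 133, 455, 234 and 639 CPM in all cells. In vehicle alone it was at 220, 559, 111 and 144 CPM, so Olfm4 had no steady direction along the scale.

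**Figure D4:**
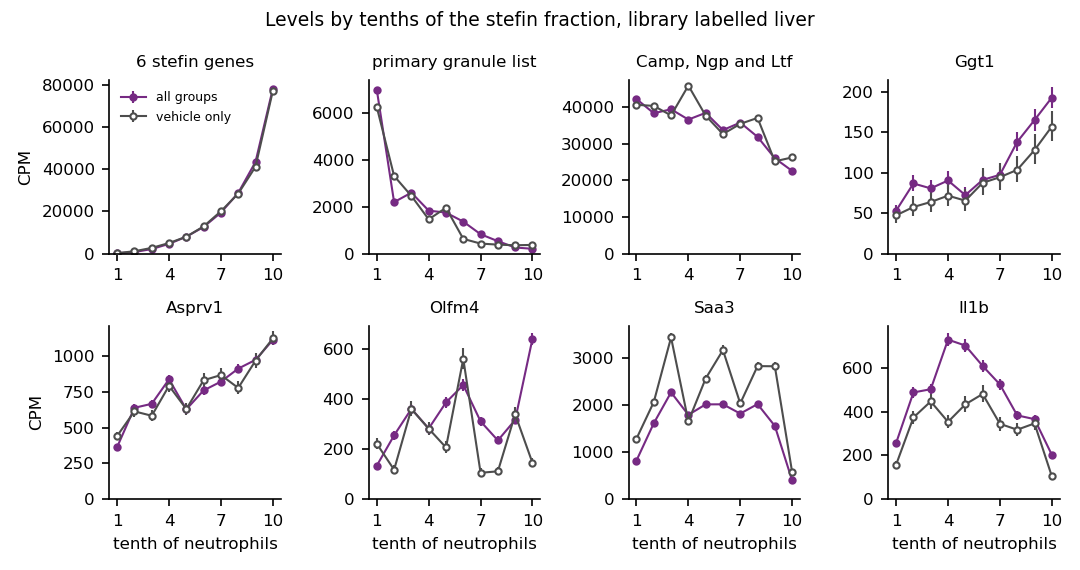
CPM (y axis) of gene sums and single genes in 10 equal bins of assigned neutrophils ordered by stefin share (x axis, 1 lowest), library labelled liver, for all groups (filled) and vehicle alone (open); lines are 95% Poisson intervals. Primary granule genes run from 6972 to 200 CPM while Ggt1 and Asprv1 run upward in both series, and Il1b and Saa3 are lowest in the first and last bins.

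Stefin-high cells were set beside 2 other neutrophil sets of the same library, the 278 cells richest in Camp, Ngp and Ltf, which share no cell with them, and the 499 cells richest in Csf1 and Ccrl2 left of 556 after 56 stefin-high cells and 1 granule-rich cell were set aside. The 56 shared cells were also left out of the stefin-high side of that comparison, so its levels differ from those of all 528 cells. Against the granule-rich cells, 612 of 5711 genes (10.7%) were at least 2-fold higher and 624 (10.9%) at least 2-fold lower. Of 12 mature neutrophil genes 11 were past 2-fold higher, among them Retnlg at 9908 against 716 CPM, and 4 of 6 tertiary granule genes, with Mmp8, neutrophil collagenase, at 962 against 99.5 CPM. Of 14 cell cycle genes 13 were past 2-fold lower and none higher. Ggt1 stood at 193 against 30.4 CPM and Asprv1 at 1108 against 361 CPM, so that both markers set stefin-high cells further from this set than from the other neutrophils.

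Against the Csf1 and Ccrl2 cells, 254 of 4719 genes (5.38%) were at least 2-fold higher and 1453 (30.8%) at least 2-fold lower. Of 10 secondary granule genes 9 were past 2-fold higher, with Chil3 at 667 against 49.8 CPM and Lcn2 at 11327 against 3758 CPM. Of 12 inflammatory genes 8 were past 2-fold lower, among them Csf1 and Ccrl2, which chose the compared cells, and 6 others, with Il1b at 243 against 2670 CPM, and Saa3 stood at 784 against 10028 CPM. Asprv1 differed by 0.35 (0.28 to 0.42) here and by -0.14 (-0.25 to -0.02) in the library labelled spleen, while Ggt1 stood at 197 against 49.3 CPM, and at 246 against 71.5 CPM in that library. These sets were cut from the same cells by related measures, so the differences are descriptions.

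Dose comparisons inside the stefin-high set covered all genes, and the 6 stefins, Camp, Ngp, Ltf, S100a8 and S100a9, which chose the cells, are a description there. Of 3168 genes with at least 100 UMIs, 10 (0.316%) were at least 2-fold higher and 45 (1.42%) at least 2-fold lower in high dose than in vehicle. For low dose against the same vehicle cells, 6 of 3190 (0.188%) were higher and 14 (0.439%) lower. Which direction had more genes depended on the choice of cells: with the top 10% by stefins 13 were higher and 7 lower for high dose, and 6 higher and 3 lower for low dose. For low dose there were 10 higher and 7 lower with S100a8 and S100a9 at 20% of UMIs, 10 and 6 when ranked on thinned cells, and 7 and 7 without doublets. The median of all genes was -0.07 for high dose, with 1261 higher and 1907 lower, and -0.02 for low dose, with 1504 higher and 1686 lower. The lists below are read beside these shares.

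Olfm4, a glycoprotein of specific granules carried by only part of neutrophils (chr14:79984081-80023139), was higher at both doses. It stood at 244 CPM (226 to 263) in vehicle, 445 (417 to 473) in low dose and 843 (806 to 882) in high dose, which gave log2 ratios of 0.87 (0.73 to 1.01) and 1.79 (1.66 to 1.92). In other neutrophils it stood at 221, 295 and 402 CPM. The cells with at least 1 Olfm4 UMI were 31 of 220 in vehicle, 33 of 201 in low dose and 35 of 107 in high dose, and the highest 5 cells held 47.7%, 45.3% and 39.0% of the UMIs. At an equal depth of 3000 UMIs these were 11.8% (7.72 to 17.1), 14.6% (9.91 to 20.4) and 30.8% (22.3 to 40.5) of stefin-high cells, against 0%, 0.235% and 1.00% of T cells, where 0 of 611 vehicle cells allows up to 0.491% by 3 counts of the total and 0.602% by the Clopper-Pearson limit. Before thinning 5 of 686 vehicle T cells (0.729%) had an Olfm4 UMI. In other neutrophils the shares were 10.7%, 12.9% and 8.77% (4.29 to 15.5), near the stefin-high share in vehicle and under its interval in high dose. The ratios were 2.39 and 2.06 for high and low dose in the library labelled spleen, from 164 CPM in vehicle.

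An enzyme of isoprenoid synthesis and a pair of chaperones of the endoplasmic reticulum were among the genes higher in high dose. Fdps, farnesyl diphosphate synthase, stood at 58.6 CPM in vehicle, 62.9 in low dose and 156 in high dose, a log2 ratio of 1.41 (1.14 to 1.69). Idi1 and Pmvk, enzymes before Fdps in the pathway that were picked after their values were seen, had ratios of 2.27 (1.69 to 2.90) and 1.04 (0.48 to 1.62). In vehicle and high dose Idi1 had 30 and 118 UMIs and Pmvk had 43 and 72. Neither came from the rule that named genes, and the other enzymes of the pathway are not given. Nothing is therefore read from these values about the pathway as a whole. The chaperone genes Hsp90b1 and Calr had ratios of 1.13 (0.80 to 1.47) and 1.08 (0.68 to 1.48), and Hsp90b1 was at 0.09 (-0.80 to 1.03) in the library labelled spleen. Lta4h, which makes leukotriene B4, was at 0.93 (0.50 to 1.38), and at -0.54 (-1.39 to 0.31) in the library labelled spleen. In other neutrophils high over vehicle was 1.31 for Fdps, 1.14 for Hsp90b1 and 1.27 for Calr, so these differences were present in both sets.

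Chil3, a chitinase-like protein, was higher at both doses, at 386, 773 and 829 CPM in vehicle, low and high dose, but the high-dose log2 ratio turned to -0.17 when cells were ranked within each hashtag group. The highest 5 cells held 41.1%, 39.3% and 43.5% of its UMIs. Cells with a Chil3 UMI, not matched for depth, were 82 of 220, 80 of 201 and 81 of 107. The list of secondary granule genes, which holds Chil3, was also mostly higher in high dose: 8 of 10 were higher, Chil3 and Olfm4 past 2-fold, with a median of 0.41. In the library labelled spleen Chil3 was at 0.08 (-0.17 to 0.33) for high dose. Lcn2, lipocalin 2, was at 9802, 10632 and 12996 CPM, and Ifitm6 at 6788, 6864 and 9586 CPM. In low dose 5 of 10 were higher, with a median of -0.01. Of 12 mature neutrophil genes 11 were lower in high dose, 2 of them past 2-fold (Jaml and Btg1), with a median of -0.43. Retnlg, a resistin-like protein, was at 11367, 11980 and 6072 CPM.

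Saa3, an acute-phase serum amyloid, was much lower in high dose. It stood at 1677 CPM (1630 to 1726) in vehicle, 995 (955 to 1038) in low dose and 174 (158 to 192) in high dose, a log2 ratio of -3.27 (-3.42 to -3.12) for high dose. In other neutrophils it stood at 3158, 2068 and 472 CPM. Its 4692 UMIs in vehicle were spread over 100 of 220 cells, with 26.5% in the highest 5. The library labelled spleen gave 868, 2146 and 290 CPM, lower in high dose too but higher in low dose.

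Fos, Jun and Egr1, immediate early transcription factors that are transcribed soon after a stimulus, were lower in high dose. Fos stood at 265, 239 and 72.1 CPM in vehicle, low and high dose, a ratio of -1.88 (-2.13 to -1.63), Jun at 183, 96.8 and 56.7 CPM, and Egr1 at 52.2, 28.5 and 14.1 CPM. Of 11 transcription factors with enough UMIs, 10 were lower in high dose, 4 past 2-fold (Fos, Jun, Egr1 and Nfil3), with a median of -0.53. In low dose 6 were higher and 5 lower, none past 2-fold. Fos and Egr1 were also lower in high dose in the library labelled spleen, at -1.23 and -1.74, and Jun was at -0.36.

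Il1b, interleukin 1 beta, was higher in low dose and lower in high dose. It stood at 224 CPM (207 to 242) in vehicle, 572 (541 to 604) in low dose and 130 (115 to 145) in high dose. The ratio was 1.35 (1.21 to 1.49) for low dose and -0.79 (-0.99 to -0.59) for high dose, and other neutrophils stood at 478, 1062 and 95.02 CPM. At an equal depth of 3000 UMIs 38.4%, 59.4% and 24.3% of stefin-high cells had an Il1b UMI, against 2.45%, 1.29% and 1.81% of T cells. Of 7 inflammatory genes with enough UMIs 6 were lower in high dose, 2 past 2-fold (Csf1 at -1.70 and Cxcl2 at -1.13), and of 8 in low dose 5 were higher, with Il1b past 2-fold, beside 1504 of 3190 genes higher. Csf1, Nfkbia and Cxcl2 had low-dose ratios of -0.41 (-0.90 to 0.08), -0.24 (-0.39 to -0.09) and -0.09 (-0.32 to 0.13), so the list had no single direction in low dose. Cd84, an adhesion receptor of the SLAM family, was at 140, 145 and 58.4 CPM, and Jaml, a junction adhesion molecule, at -1.60 for high dose, and these 2 were the genes past 2-fold of 6 in the suppressive list, all 6 of which were lower in high dose, or 5 without the 20 most abundant genes in the scaling.

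Orm1, Tlr2 and Sod2 were also among the genes with the largest low-dose ratios. Orm1, an acute-phase glycoprotein, stood at 24.7, 94.1 and 11.4 CPM in vehicle, low and high dose, with 211 UMIs in 28 of 201 low-dose cells, and its low-dose ratio was 1.93 (1.53 to 2.35). Tlr2, a receptor for bacterial lipoproteins, was at 1.00 (0.61 to 1.40), and Sod2, mitochondrial superoxide dismutase, at 0.98 (0.56 to 1.41). Their high-dose ratios were 0.41 (-0.02 to 0.84) and 0.68 (0.24 to 1.12), and that of Orm1 was -1.11 (-1.82 to -0.44). Low-dose ratios in the library labelled spleen were 2.91 for Orm1, 1.67 for Il1b and 1.72 for Sod2, and 0.14 (-0.66 to 0.94) for Tlr2.

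Genes usual in other leukocytes also had low ratios, which rested on few cells. Cd74, the class II invariant chain, had 302 UMIs in vehicle, 94 in low dose and 24 in high dose, and 270 of the 302 were in 5 of 220 vehicle cells, with 193 in a single cell. Crip1, a LIM-domain protein, had 134, 43 and 17 UMIs, with 124 of the 134 in 5 cells, and H2-Aa had 120, 40 and 6. Cells with at least 3 UMIs of a T, B, NK, monocyte or macrophage, dendritic, erythroid or platelet list were 36, 24 and 25 of the stefin-high cells in vehicle, low and high dose. Without them the high-dose ratio of Cd74 was 0.28 (-0.73 to 1.27) in place of -3.36. Its low-dose ratio was 0.38 (-0.54 to 1.31) in place of -1.36. For low dose H2-Aa was at 0.12 (-1.11 to 1.34), on 13 UMIs in each group. Crip1 was at 0.12 (-1.39 to 1.62), on 9 UMIs in each. The H2-Aa and Crip1 intervals reach past 2-fold in both directions, so these values do not show an absence of change. H2-Aa is also in the dendritic list that chose the cells to leave out. Saa3, Olfm4, Fdps, Fos and Il1b kept their direction without these cells, at -3.31, 1.56, 1.55 and -1.75 for high dose and 1.16 for Il1b in low dose, while the low-dose ratio of Olfm4 was 0.44 (0.28 to 0.60) in place of 0.87. Apoe, a lipid carrier of macrophages, had 129, 31 and 9 UMIs in vehicle, low and high dose. Without the cells carrying other types' UMIs it was at -2.51 for high dose, with 46 UMIs left in vehicle. Its low-dose ratio was then -0.76 (-1.53 to -0.03), not past 2-fold. Ctss and the glucocorticoid-responsive Fkbp5 were at -1.26 and -1.22 for low dose in all cells, and Ctss turned to 0.47 when cells were thinned before ranking.

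**Figure D5:**
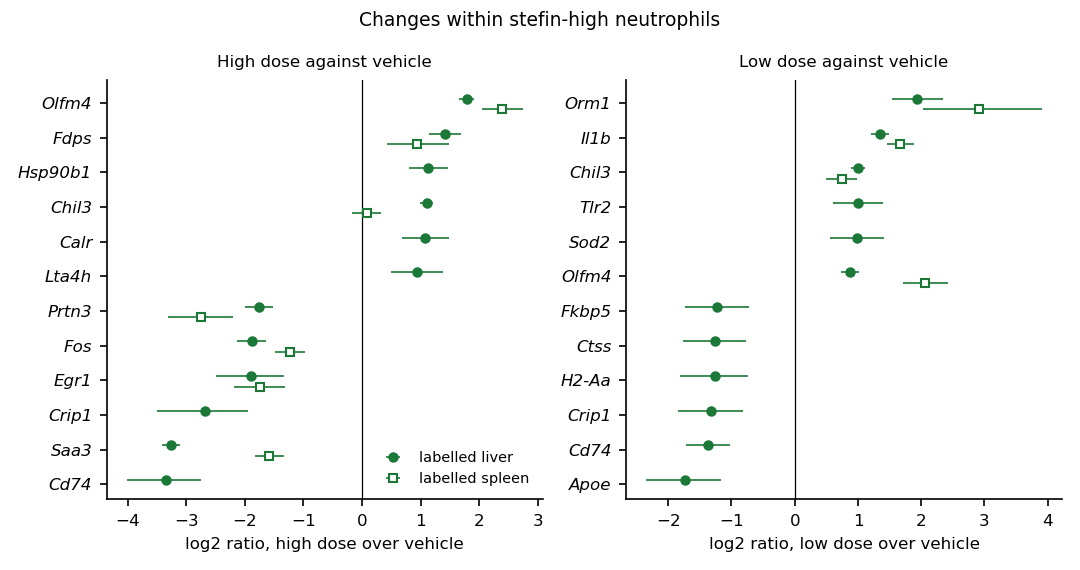
Log2 ratio (x axis) of CPM in high dose over vehicle (left) and low dose over vehicle (right) within stefin-high cells, for the genes with the largest ratios; circles are the library labelled liver, squares the library labelled spleen where a gene had at least 100 UMIs, and lines are 95% intervals of counting error. Olfm4 lies right of 0 in both panels and libraries, Saa3 far left in high dose, and the Cd74 and Crip1 points rest on few vehicle cells.

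Lists tied to the compound held few transcripts. The FACT genes had 1 of 2 with enough UMIs in each dose comparison, Supt16, at -0.62 (-1.23 to -0.04) for high dose and 0.10 (-0.41 to 0.61) for low dose. Of 10 p53 target genes 3 had enough UMIs, and all 3 were lower at both doses without passing 2-fold, with medians of -0.29 and -0.33. Of 6 genes for Z-nucleic acid sensing and necroptosis 2 had enough UMIs, with medians of -0.28 and -0.46; Zbp1, the sensor, had 75, 31 and 56 UMIs in vehicle, low and high dose. Of 7 interferon-response genes 5 were higher in high dose and 1 in low dose, none past 2-fold. The glutathione list had 6 of 8 genes higher in high dose with a median of 0.09, Ggt1 among them at 0.64 (0.46 to 0.82), and the glycolysis list 7 of 11 with a median of 0.08, and with Bnip3 past 2-fold lower at -1.13.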

How the data were processed

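Single-cell RNA was measured in 2 droplet libraries with 3 hashtag antibodies each. The authors deposited raw UMI counts per gene and barcode from Cell Ranger (6.0.0 in the submitters' processing notes, 5.0.0 in the matrix header, and another version in the study's methods), aligned to mm10 per the labels; per the study's methods they hold the barcodes that Cell Ranger detected as cells, and no further filter on genes or mitochondrial share was named. Depth in stefin-high cells was 2797566, 2242107 and 2275774 gene UMIs in vehicle, low and high dose. Every cell was placed in its group by its dominant hashtag, and HTODemux (Seurat 5.3.0) was an alternative. UMIs were summed over cells and divided by total gene UMIs (CPM); intervals came from scipy 1.17.1 under Python 3.11.15. A gene was called past 2-fold only with 100 UMIs over both sides, unless another minimum is stated. Single ratios had no such minimum and could rest on fewer UMIs. This holds for Orm1 in high dose (69 UMIs in vehicle and 26 in high dose). It can also hold within a single dose group, in the library labelled spleen, under the alternatives and without cells carrying other cell types' UMIs. With 1 pooled sample per group no model across genes was fitted. Gene totals were simulated by Poisson draws from the summed counts, with 200 genes changed. Intervals held the true ratio for 95.6% of 7451 genes (stefin-high against other), 95.8% of 3168 (high dose) and 95.1% of 3190 (low dose). The intervals assume the same model, so this checks the calculation only. The uneven spread of UMIs over cells was not simulated, and the intervals leave it out.

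Genes were named by rule: the rule genes and given markers; the 10 largest rises and 8 largest falls against other neutrophils with 300 UMIs and one direction in all 3 groups; per dose, the 6 largest rises and 6 largest falls with 150 UMIs; and the most abundant members of 40 gene lists. A gene that the rule names is not reported here. The members and lists were chosen with earlier results of these data known. Alternatives changed the hashtag caller, neutrophil and stefin limits, ranking, count minimum, scaling and library, with cells screened for doublets by Scrublet (scanpy 1.11.5). Scrublet marked 248 doublets in the library labelled liver but 1 in that labelled spleen, where it did not work; doublets were kept in the values given. Barcodes without a hashtag call, 680 in the library labelled liver, were left out. Cells with a UMI may reflect free RNA, for which T cells gave the background.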

Additional observations from a re-analysis of the deposited data

Results flagged for a closer look

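The 173 named genes were compared between the libraries only where they had at least 100 UMIs over both groups in each. The number of genes that met this limit is not given. Within stefin-high cells, 9 gene and dose pairs had opposite directions in the 2 libraries with both counting intervals clear of 0. The difference between libraries was not tested, and each group in each library is 1 pool.

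For high dose over vehicle, the log2 ratio of Asprv1 was -0.28 in the library labelled liver against 0.39 in that labelled spleen, and that of S100a11 was -0.042 and 0.20. For low dose, Saa3 had the widest gap, -0.75 in the first (1677 to 995 CPM) and 1.31 in the second (868 to 2146 CPM). Nfkbia, an inhibitor of NF-kappaB, was at -0.24 and 0.65, and Ltf, lactoferrin, at -0.46 and 0.57. Anxa1, an anti-inflammatory annexin, was at -0.037 and 0.27. Among the stefins, Cstdc4 was at -0.22 and 0.17, Stfa3 at -0.085 and 0.20 and Stfa2l1 at -0.041 and 0.11 for low dose. The stefins and Ltf helped to choose the cells, with a stefin limit of its own in each library (3.43% and 3.32%), so their ratios are a description and nothing is read from them.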

How the results depend on the processing

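The share of neutrophils that were stefin-high was higher in high dose than in vehicle under every alternative run, by 23.6 to 31.2 points within the library labelled liver and by 13.3 points in the library labelled spleen; the low-dose difference ran from -5.72 to -1.34 points. Ranking within each hashtag group fixes the shares and gave none. Shares without the Csf1 and Ccrl2 set, and counts without cells carrying other cell types' UMIs, were chosen after seeing the data.

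Genes past 2-fold for high dose, 55 in the values above, were 24 with S100a8 and S100a9 at 20% of UMIs, 20 with the top 10% by stefins (13 higher and 7 lower), 128 when ranked within groups, 161 as a mean over cells, 260 at 30 UMIs, 17 at 300 UMIs and 19 in the library labelled spleen; fractions without S100a8 and S100a9 gave 13 higher and 24 lower. For low dose, 20 above, they were 9 with the top 10%, 41 with the top 30%, 40 as a mean over cells, 179 at 30 UMIs, 5 at 300 UMIs and 33 in the library labelled spleen; without doublets, or without cells carrying other types' UMIs, 7 were higher and 7 lower. Against other neutrophils, 724 above, they were 284 with S100a8 and S100a9 at 20%, 1138 with fractions without these genes, 1435 at 30 UMIs and 309 at 300 UMIs. The causes were not tested beyond the count minimum, which sets how many genes enter.

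Against other neutrophils, scaling without the 20 most abundant genes gave 13 higher and 470 lower. Among the values of named genes under the alternatives, 418 stayed within the counting interval of the value given above, 251 lay outside it without turning a ratio past 2-fold, and 16 turned such a ratio. Crip1 turned for high dose to 0.51 with S100a8 and S100a9 at 20%, 0.68 with the top 10% and 0.13 when ranked on thinned cells, and for low dose to 1.85, 2.73 (thinned), 0.21 (fractions without S100a8 and S100a9) and 0.12 (without cells carrying other types' UMIs). Without those cells Cd74 turned to 0.28 for high and 0.38 for low dose and H2-Aa to 0.12 for low dose. The dendritic list that chose those cells holds H2-Aa, so its turn was set in part by the removal and nothing is read from it. Cd74 had 18 and 20 UMIs left in high dose and vehicle. With the top 10% H2-Aa was at 0.30. Apoe for low dose was at 2.35 when ranked on thinned cells and 0.23 in the library labelled spleen, Ctss at 0.47 on thinned cells, Chil3 for high dose at -0.17 when ranked within groups, and Hba-a1 against other neutrophils at 0.64 in the library labelled spleen. No paired analysis was possible because the labels give 1 sample per tissue and no shared replicate number. Counting error limits genes under about 100 UMIs, and the spread between mice is not known.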

Other observations

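Neutrophils without a hashtag call belong to no group. Of 206 such cells in the library labelled liver, 31 (15.0%) had a stefin share at or above that of the lowest stefin-high cell, and of 59 in the library labelled spleen, 10 (16.9%).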
